A study of Homo sapiens with 3 samples.

Results

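Widely spaced pairs are places where polyadenylated RNA from 1 strand of the genome ends at exactly 2 main positions that lie 1000 to 4000 nt apart. They were found from counts of RNA 3′ ends from HEK293T, a cell line of human embryonic kidney origin. Counts of the 3 libraries were summed, positions within 24 nt of a local maximum were merged into sites, and nuclear sites with at least 20 counts were joined into groups at gaps of at most 4000 nt. Sites with under 5% of a group's counts were dropped, and groups left with 2 sites and at least 300 counts were kept. This gave 1209 pairs of 30111 groups of sites in all, or of 6086 groups that kept 2 or more ends and passed the same count minimum. The rule used the summed counts of all libraries and the spacing, and not how a pair's counts were divided between libraries. The sums were not scaled for depth. The deepest library, the input described below, thus weighed most in which sites were kept. A site could also be kept through counts of the labelled libraries alone.

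The series compared newly made with steady-state RNA and had 3 libraries of untransformed counts, 1 per group, all from HEK293T cells grown in the same medium. In 4sU 30 min and 4sU 60 min, cells were given the nucleoside 4-thiouridine (4sU) for that time and the RNA that had taken it up was captured. The third library, the input of the 30 min labelling, stands for steady-state RNA; its treatment label reads none although its title names the labelling. The labelled libraries were prepared without the first of 2 poly(A) selections, and whether the input was is not stated, so labelling and this step cannot be told apart. The nuclear totals were 9652023, 6151986 and 32768468 counts for 4sU 30 min, 4sU 60 min and input, and mitochondrial RNA took 31.8%, 31.1% and 7.46% of all counts in the same order. With 1 library per group no difference below has a replicate check, no p-value is given, and intervals (95%) cover counting error only. Depth differed between libraries: the median pair had 667 counts in input, against 273 at 30 min and 140 at 60 min, and the median half-width of the interval of a share was 2.52, 4.03 and 5.65 points.

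Most mammalian genes hold more than one signal at which the transcript can be cut and given its poly(A) tail, a choice called alternative polyadenylation. The upstream (proximal) end gives the shorter RNA, and the downstream (distal) end is reached only by polymerase that has transcribed past the first. RNAs with the longer end carry extra sequence that can hold binding sites for microRNAs and proteins, which is why the balance between ends in new and in standing RNA is followed. Here upstream and downstream follow the strand in the tables, taken as that of the RNA, and they would trade places if it were the other. Positions are given in the numbering of the deposited tables, read as 0-based half-open intervals and written 1-based. No source used here names the build. Counts on chromosome 1 reached position 249223263, past the last gene end of the GRCh38.p14 gene table, 248937099, so ends were not assigned to genes. A pair can therefore be the 2 ends of 1 gene or the ends of 2 neighbouring genes, and the marker genes of the cell line were not checked.

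The downstream end took a larger part of the pair in new RNA than in the input. Its median share over the 1209 pairs was 52.1% in input (quartiles 13.1 and 86.2), 63.2% in 4sU 30 min (21.9 and 87.5) and 61.1% in 4sU 60 min (22.1 and 87.9). The downstream end was the larger one in 620 pairs in input, 685 at 30 min and 674 at 60 min. Pairs with a downstream share under 20% numbered 384 in input and 281 and 277 in the labelled libraries, while pairs over 80% numbered 392, 426 and 428. Added up over all pairs, the downstream ends held 48.9% of the pairs' counts in input, 57.6% at 30 min and 58.2% at 60 min. The summed level of the upstream ends was 30557 CPM (counts scaled to a nuclear total of 1000000) in input, 31931 at 30 min and 27827 at 60 min. That of the downstream ends was 29196, 43362 and 38737 CPM.

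Pair by pair, the downstream share was called higher in 361 pairs and lower in 136 at 30 min, and in neither direction in 712. A pair was called at a change of at least 10 points whose interval (Newcombe) excluded 0. Called higher were 29.9% of the pairs, against 21.8% of all groups of 2 or more ends, and called lower were 11.2%, against 9.94%. In groups of more than 2 ends, the share is that of the most downstream end in the counts of all kept ends. For those groups it is not the same measure as in a pair, here and in the comparisons with all groups below. Over the pairs the median change was 3.59 points, with quartiles of -2.96 and 12.4, and over all groups it was 2.20 points. At 60 min 345 pairs were higher and 136 lower, or 28.5% and 11.2%, against 25.3% and 10.4% of all groups. The median was then 3.95 points, against 2.76 over all groups. Both comparisons use the same input library. At 30 min the lean toward higher calls was seen on both strands. On the plus strand 186 of 646 pairs were higher and 79 lower, and on the minus strand 175 and 57 of 563. It was not seen at all input shares. Under 20% in input, 157 of 384 pairs were higher and 3 lower, and from 20 to 80%, 188 and 65 of 433. Over 80%, 16 of 392 pairs were higher and 68 lower. Input enters both this split and the change, and shares near either limit have less room to move toward it. The rule for minor sites also acts here. An end under 5% of its pair in input was kept only if its share was higher in a labelled library. For such a downstream end the rule itself favoured a rise, and for such an upstream end a fall. The calls this covers were not counted, so the split cannot tell how the lean depends on the input share.

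**Figure D1:**
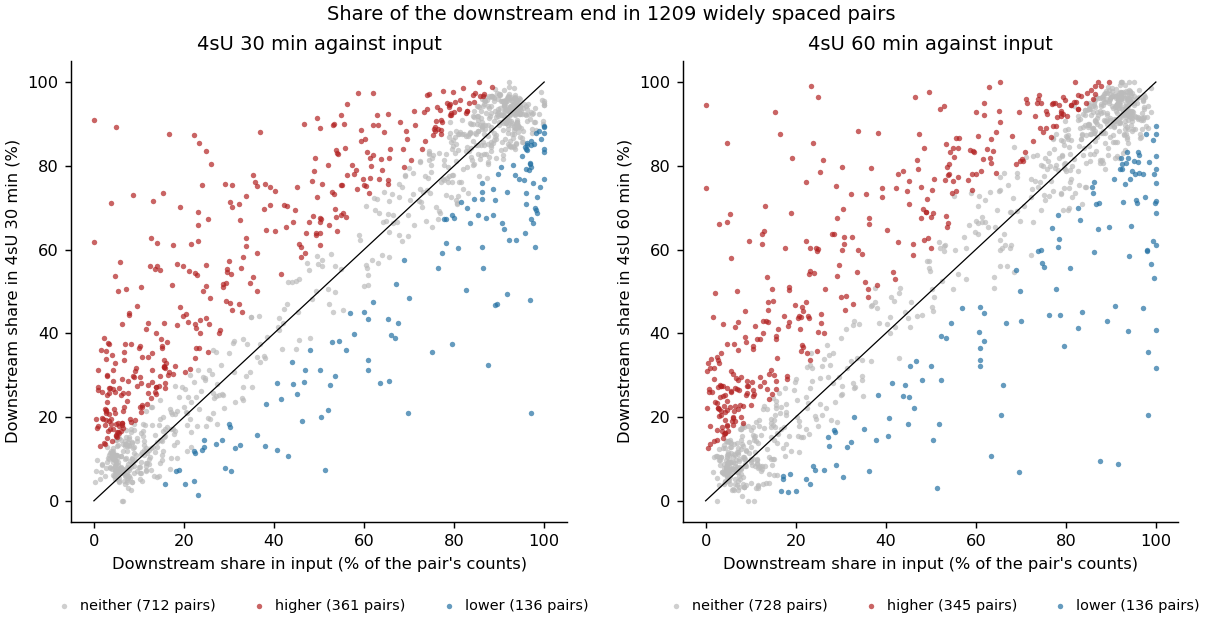
Downstream share of each of the 1209 pairs in input (x axis, % of the pair's counts) and in 4sU 30 min (left) or 4sU 60 min (right, y axis); each point is a pair, coloured by its call, and the line marks equal shares. At 30 min 361 points called higher lie above the line and 136 called lower lie below it.

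Large changes were mostly toward the downstream end. Changes of at least 20 points were called in 176 pairs toward the downstream end and 54 toward the upstream end at 30 min (14.6% and 4.47%, against 8.17% and 2.96% of all groups). For at least 30 points the counts were 79 and 21 (6.53% and 1.74%, against 2.96% and 0.904%), and for at least 50 points 17 and 2 (1.41% and 0.165%, against 0.444% and 0.115%). At 60 min 188 and 62 pairs changed by at least 20 points (15.6% and 5.13%, against 11.5% and 3.8% of all groups), and 94 and 30 by at least 30 points (7.78% and 2.48%, against 4.73% and 1.56%). At least 50 points were then reached by 21 and 10 pairs (1.74% and 0.827%, against 0.674% and 0.312%). The larger end itself changed, with both intervals clear of 50%, in 54 pairs toward the downstream end and 16 toward the upstream end at 30 min (4.47% and 1.32%, against 2.61% and 1.23% of all groups), and in 45 and 16 at 60 min (3.72% and 1.32%, against 2.97% and 1.4%). In groups of more than 2 ends, such a change means that the most downstream end crossed 50% of the counts of all kept ends. How the rule treats minor ends mattered for the counts of called pairs. When no site was dropped for holding under 5% of its group, 990 pairs were found, with 204 higher and 75 lower at 30 min, 187 and 85 at 60 min, and medians of 1.44 and 1.51 points. When sites under 10% were dropped, 1211 pairs had medians of 5.22 and 6.19 points. Among the 623 pairs in which the 5% rule dropped no site, 194 were higher and 69 lower at 30 min.

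Each end's own ratio to the input gives the change of the ends separately. At 30 min the median CPM ratio of the downstream ends was 1.82, with 561 of 1209 called higher at 2-fold and 92 called lower, while that of the upstream ends was 1.17, with 397 higher and 240 lower. Calls needed an exact interval of the ratio that excluded 1. Of all 22144 ends kept by the rule in groups of any size, 33.5% were called higher and 17.4% lower; for the downstream ends of the pairs the shares were 46.4% and 7.61%, and for the upstream ends 32.8% and 19.9%. At 60 min 418 downstream ends were higher and 149 lower (34.6% and 12.3%), and 276 upstream ends were higher and 303 lower (22.8% and 25.1%), against 22.9% and 23.3% of all ends. The ends that were alone in their group had median log2 ratios of 0.32 at 30 min and 0.11 at 60 min.

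Set against all ends, the downstream ends had higher ratios than the median end and the upstream ends lay near it. The median log2 ratio of all ends was 0.31 at 30 min and -0.10 at 60 min. Relative to it, the downstream ends of the pairs had a median of 0.55 at 30 min and 0.56 at 60 min, and the upstream ends had -0.08 and -0.03. Of the downstream ends, 774 lay above the median of all ends at 30 min and 805 at 60 min, and of the upstream ends 580 and 594. These distances do not move with a common scaling factor, but the calls do. Higher calls made up 85.9% of the calls of downstream ends and 62.3% of those of upstream ends at 30 min with nuclear CPM. With mitochondrial counts in the total they made up 69.9% and 46.0%, with TMM 58.8% and 38.0%, and with median-of-ratios scaling 53.9% and 34.9%. At 60 min the same splits were 73.7% and 47.7% with nuclear CPM, 55.0% and 30.7% with mitochondrial counts, 59.4% and 34.7% with TMM, and 59.8% and 34.9% with median of ratios. The median log2 ratio of the upstream ends at 30 min, 0.23 with nuclear CPM, turned to -0.21, -0.45 and -0.55 under the other scalings. It also turned to -0.13 in the 656 pairs with at least 1000 counts, where the median of all ends was 0.02.

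Within a pair, the downstream end had the higher log2 ratio in 776 pairs and the lower in 433 at 30 min, by a median difference of 0.46 (1.38-fold). At 60 min these counts were 797 and 411, with a median of 0.57 (1.49-fold). The downstream end was thus the higher in 64.2% and 65.9% of pairs. Pairs under 1000 nt apart, chosen by the same rule, leaned the same way by less. There it was the higher in 1020 of 1829 at 30 min (55.8%, median 0.14) and in 970 at 60 min (53.0%, median 0.09). The combinations of calls that follow were counted in the widely spaced pairs only. Both ends were called higher at 30 min in 301 pairs, only the downstream end was higher in 213 with the upstream end in neither call, and 47 pairs had a higher downstream and a lower upstream end. The reverse, a higher upstream and a lower downstream end, occurred in 12 pairs. In 145 pairs the upstream end was lower and the downstream end in neither call. At 60 min 40 pairs had a higher downstream with a lower upstream end and 11 the reverse.

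Which end was called differed among the pairs with a called share. Of the 361 pairs higher at 30 min, 47 had a lower upstream with a higher downstream end, and 139 had only a higher downstream end. Another 92 had only a lower upstream end, and 32 had neither end called. Both ends were called higher in 44 and lower in 7. In the 361 pairs higher at 30 min, the upstream end had a median log2 ratio of -0.66 and lay below its input level in 250, and the downstream end had a median of 1.5 and lay above its input level in 311. In the 136 pairs called lower, the upstream end had a median of 2.44 and lay below the input in only 10, while the downstream end had a median of 0.16, with 75 above the input. These medians describe pairs picked by the same counts and are no further evidence of the change. At 60 min the medians were -0.82 and 1.33 in the pairs called higher, and 2.07 and -0.11 in those called lower.

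**Figure D2:**
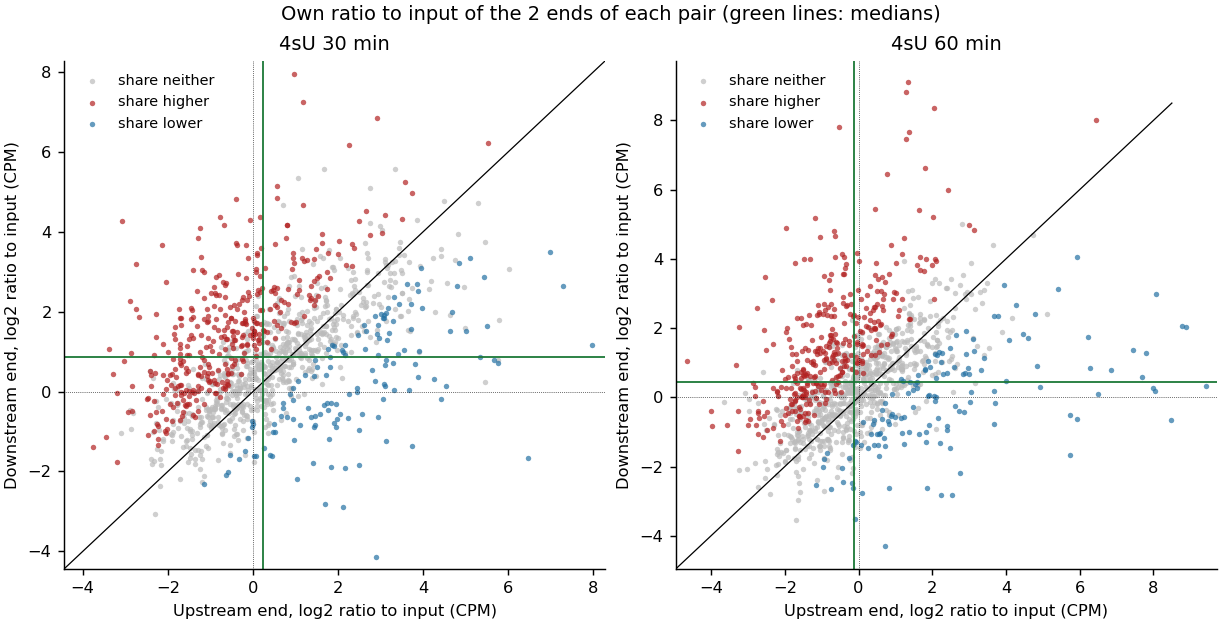
Log2 ratio of CPM to input for the upstream end (x axis) and the downstream end (y axis) of each pair at 30 min (left) and 60 min (right); points are pairs coloured by the call of their downstream share, the diagonal marks equal ratios and green lines mark medians. The medians at 30 min are 0.23 for upstream and 0.86 for downstream ends, so that more pairs (776) lie above the diagonal than below it (433).

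The 10 largest rises of the downstream share at 30 min were taken from the called pairs with at least 50 counts of the pair in each library, 319 pairs. The largest lay on chromosome 1 (minus strand, ends 202736222 and 202733183), with 3039 nt between its ends. The upstream end had 13, 18 and 372 counts and the downstream end 108, 105 and 19, where the order, kept for the pairs below, is 30 min, then 60 min, then input. Its downstream share was thus 89.3% (82.5 to 93.6), 85.4% (78.1 to 90.5) and 4.86% (3.13 to 7.47), high in both labelled libraries and low in input with no overlap of intervals. The upstream end stood at 0.119 of its input level at 30 min (0.0626 to 0.205) and the downstream end at 19.3 times (11.8 to 33.3). Between the ends lay 2, 1 and 0 counts.

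The second, on chromosome 6 (plus strand, ends 31637843 and 31641319), had 94, 88 and 2366 counts upstream and 670, 624 and 471 downstream, with the libraries taken in the same order. Its downstream share was 87.7% and 87.6% in the labelled libraries and 16.6% (15.3 to 18.0) in input. The third, on chromosome 19 (minus strand, ends 1876976 and 1874889), had 241, 172 and 1917 counts upstream and 1666, 550 and 550 downstream, or shares of 87.4%, 76.2% and 22.3%. In these pairs the upstream end was the major end in input and the minor end in both labelled libraries. The 60 min share of the chromosome 19 pair lay 11.2 points below that at 30 min (interval of the difference -14.7 to -7.83).

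The fourth pair differed more between labelling times. On chromosome 11 (plus strand, ends 18625429 and 18627972), the upstream end had 25, 64 and 574 counts and the downstream end 68, 53 and 55. The share was 73.1% at 30 min, 45.3% at 60 min and 8.74% in input, so that 60 min lay between the other libraries. The sixth, on chromosome 1 (minus strand, ends 149895208 and 149893233), rested on 65 counts in input. Its upstream end had 77, 25 and 55 counts and its downstream end 213, 329 and 10, which put the downstream end at 72.3 times its input level at 30 min (38.6 to 153) and 175 times at 60 min (94.1 to 369). Of the summed counts of that downstream end, 94% lay at 1 nucleotide. The other 5 of the 10 had rises between 51.2 and 58.4 points at 30 min and between 42.7 and 61.6 points at 60 min. Among the 10, the downstream end exceeded its input level in every pair at both times, and the upstream end lay below its input level in 9 at 30 min. The pairs were ranked by the same counts, and 60 min uses the same input, so this tally is no further evidence of the change.

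The 10 largest falls at 30 min, from 120 called pairs with enough counts, began on chromosome 10 (minus strand, ends 75183339 and 75181970). The upstream end had 83, 41 and 38 counts and the downstream end 22, 35 and 1311 (4sU 30 min, 4sU 60 min, input). The downstream end stood at 0.0570 of its input level at 30 min (0.0356 to 0.0866) and at 0.142 at 60 min (0.0986 to 0.199). The change in share was -76.2 points at 30 min and -51.1 at 60 min. In input the upstream end of this pair held under 5%, so the 5% rule kept it only through the labelled libraries. On chromosome 19 (plus strand, ends 31047785 and 31048965), the upstream end had 94, 152 and 7 counts and the downstream end 45, 16 and 49. The share there was 32.4%, 9.52% and 87.5% (76.4 to 93.8), lowest at 60 min. On chromosome 5 (minus strand, ends 102886558 and 102884557), the upstream end had 415, 122 and 396 counts and the downstream end 33, 4 and 418, so that ends of nearly equal counts in input were far apart in new RNA, with shares of 7.37%, 3.17% and 51.4%.

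The eighth fall was the most abundant of these pairs, on chromosome 17 (plus strand, ends 41152262 and 41154970). Its upstream end had 762, 533 and 598 counts and its downstream end 1177, 786 and 29589. The share was 60.7% (58.5 to 62.9), 59.6% (56.9 to 62.2) and 98.0% (97.9 to 98.2), alike at both labelling times and higher in input. The downstream end, with 90% of its counts at 1 nucleotide, stood at 0.135 of its input level at 30 min, while the upstream end stood at 4.33 times. This group held 15 sites of at least 20 counts, of which the 5% rule left 2. Its upstream end, under 5% in input, was kept by that rule only through the labelled libraries. Across the 10 falls the upstream end exceeded its input level at both times in every pair, and the downstream end lay below it in 5 at 30 min and in 8 at 60 min. As for the rises, these pairs were picked by the same counts, and the tally is no further evidence.

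**Figure D3:**
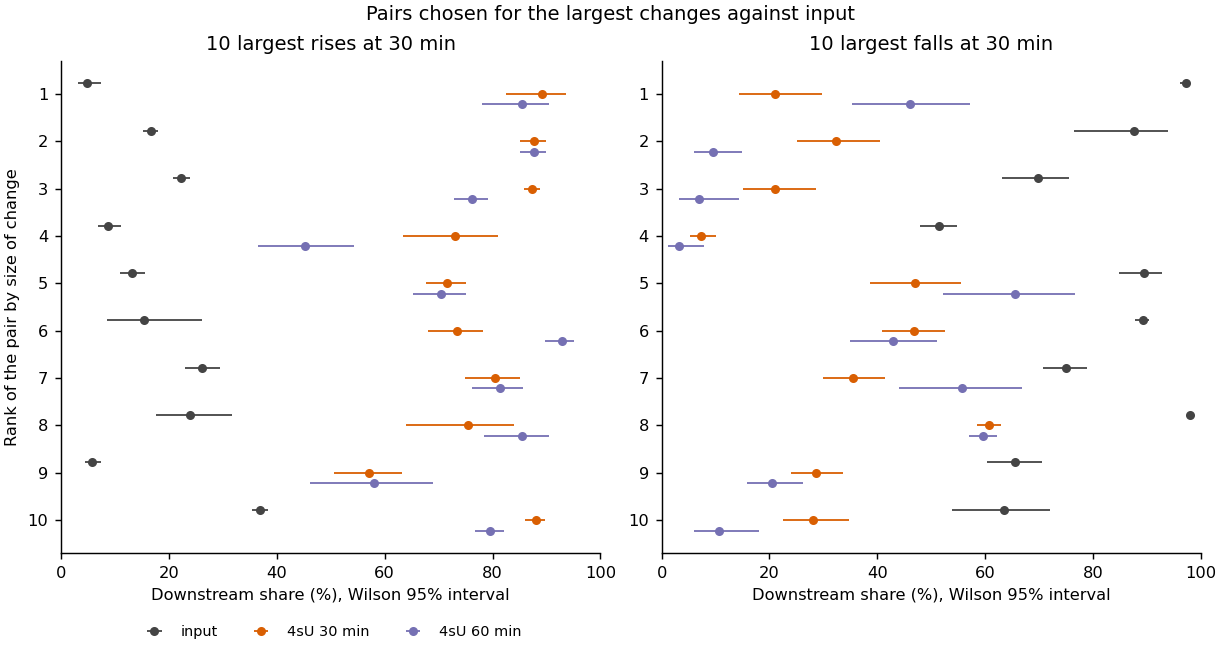
Downstream share (x axis, %, with Wilson 95% intervals) in input, 4sU 30 min and 4sU 60 min for the 10 pairs with the largest rise (left) and the 10 with the largest fall (right) at 30 min, ranked on the y axis. The pairs were chosen for this change; in the first rise the shares are 4.86% in input and 89.3% at 30 min, and in the first fall 97.2% and 21.0%.

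Of the 6 pairs with the most counts, 4 had no called share in any comparison. Some of their ends were called by their own ratio to input. On chromosome 12 (plus strand, ends 56551760 and 56555363), the upstream end had 352, 418 and 4036 counts and the downstream end 6583, 7610 and 42167, or downstream shares of 94.9%, 94.8% and 91.3%. On chromosome 6 (plus strand, ends 44219909 and 44221619), the shares were 94.4%, 92.2% and 93.9%, and on chromosome 17 (minus strand, ends 62495740 and 62494373) they were 7.47%, 5.66% and 4.7%. On chromosome 1 (minus strand, ends 182353416 and 182352033), they were 93.0%, 96.5% and 92.0%. By own ratio, the upstream end of the chromosome 12 pair stood at 0.296 of its input level at 30 min (0.265 to 0.330). The upstream end of the chromosome 1 pair stood at 2.32 times at 30 min and its downstream end at 2.68 times. The differences between libraries in these 4 pairs were at most 4.54 points, under the 10 points of a call, although most of their intervals excluded 0. The exceptions among the 6 were the chromosome 17 pair described above and one on chromosome 16 (plus strand, ends 2011976 and 2015503). The latter had 4158, 3282 and 29832 counts upstream and 5105, 3371 and 5158 downstream. Its share was 55.1% (54.1 to 56.1) at 30 min, 50.7% (49.5 to 51.9) at 60 min and 14.7% (14.4 to 15.1) in input. There the upstream end stood at 0.473 of its input level at 30 min and the downstream end at 3.36 times (3.23 to 3.49). Between its ends or within 1000 nt of them, 4 sites of at least 20 counts lay on the opposite strand.

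**Figure D4:**
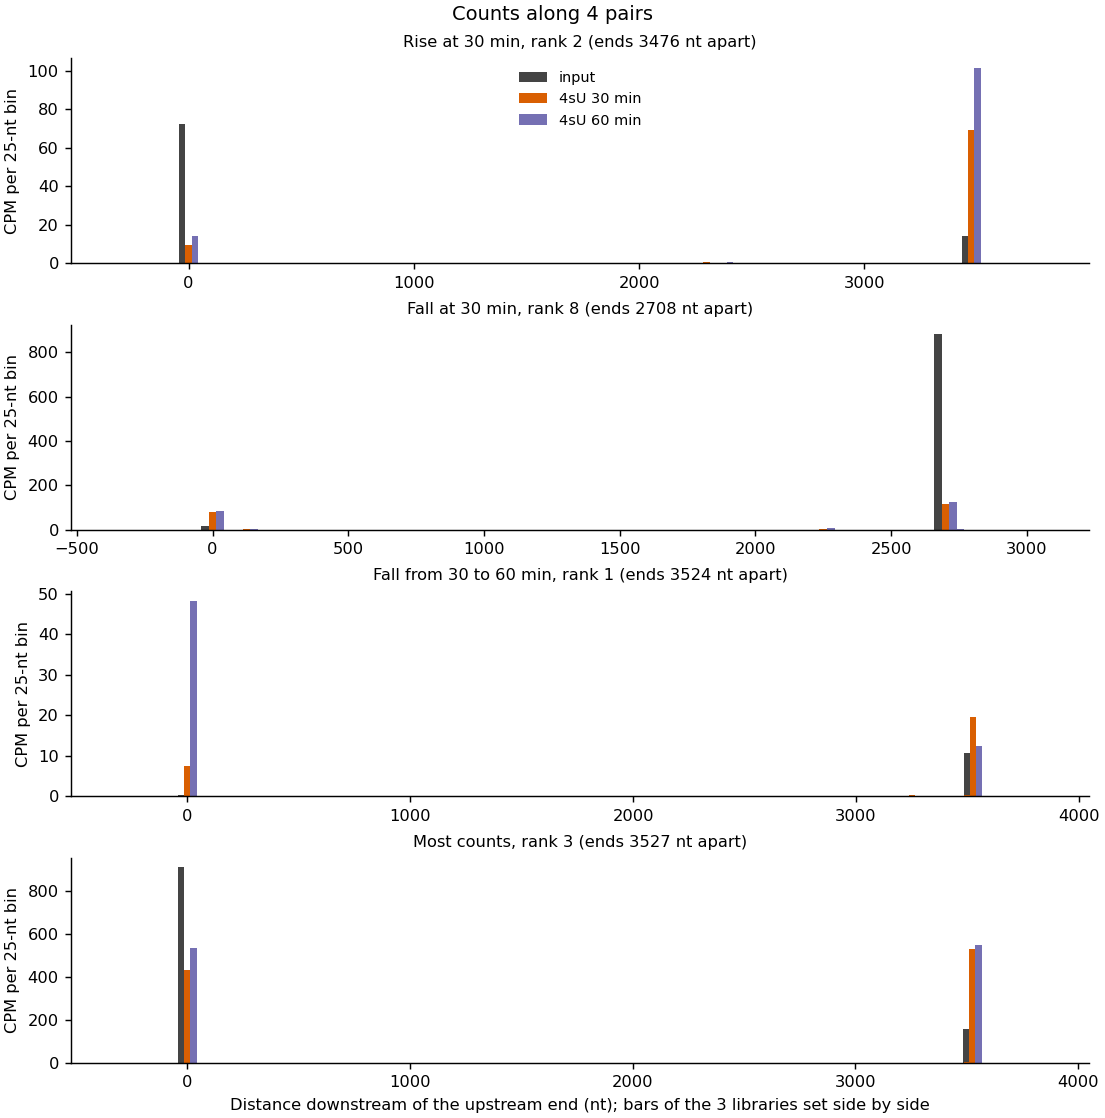
CPM in bins of 25 nt (y axis, linear scale, different in each panel) by distance downstream of the upstream end (x axis, nt) in 4 pairs, with bars for input, 4sU 30 min and 4sU 60 min drawn side by side. The counts lie in separate blocks at the 2 ends; in the top panel the upstream block is highest in input and the downstream block is higher in both labelled libraries (670 and 624 counts against 94 and 88 upstream).

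Between the labelling times the pairs moved both ways. This comparison shares each of its libraries with one of those above. From 30 to 60 min the downstream share was higher in 146 pairs and lower in 137, or 12.1% and 11.3%, against 11.1% and 8.72% of all groups of 2 or more ends. The median change was 0.41 points, with quartiles of -4.85 and 5.45, and over all groups it was 0.62. Its sign depended on the choice of pairs: it was -0.04 when no site was dropped by share and -0.42 in the pairs without a dropped site. The counts were then 77 higher and 79 lower, and 75 and 76. Changes of at least 20 points from 30 to 60 min were called in 41 pairs toward the downstream and 49 toward the upstream end (3.39% and 4.05%, against 2.89% and 2.28% of all groups). At least 30 points were reached in 12 and 14 (0.993% and 1.16%, against 0.707% and 0.575%), and at least 50 points in 0 and 2 (against 0.0164% and 0.0329%). The larger end changed in 6 pairs in either direction (0.496%). Of all groups, the share of the most downstream end crossed 50% upward in 0.69% and downward in 0.427%. Split by the share in input, a library that does not enter this comparison, the median change was -0.71 points in the 384 pairs under 20%, 0.52 in the 433 pairs from 20 to 80% and 1.08 in the 392 pairs over 80%. Each end's own ratio of 60 to 30 min had a median log2 value of -0.35 upstream and -0.32 downstream, against -0.37 for all ends. Called higher were 49 upstream and 44 downstream ends (4.05% and 3.64%, against 3.24% of all ends), and called lower 229 and 183 (18.9% and 15.1%, against 17.6%).

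The largest rise from 30 to 60 min, among called pairs with enough counts, was on chromosome 2 (plus strand, ends 170608387 and 170611197). The upstream end had 186, 45 and 1394 counts and the downstream end 63, 88 and 42, so that the share went from 25.3% (20.3 to 31.0) at 30 min to 66.2% (57.8 to 73.7) at 60 min, with 2.92% in input. Under 5% in input, this downstream end was kept only through the labelled libraries. In the next, on chromosome 7 (minus strand, ends 19155093 and 19152675), the upstream end had 244, 30 and 210 counts and the downstream end 29, 31 and 159. Its share was 10.6% at 30 min, 50.8% at 60 min and 43.1% in input, so that 30 min was the library that stood apart. The upstream end was at 3.94 times its input level at 30 min and at 0.761 at 60 min (0.501 to 1.12). A pair on chromosome 6 (plus strand, ends 27369305 and 27371686) had the same order, with shares of 55.6%, 90.6% and 86.5%. The upstream end there had 59, 6 and 37 counts.

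The largest fall from 30 to 60 min was on chromosome X (minus strand, ends 48889764 and 48886240). The upstream end had 72, 297 and 6 counts and the downstream end 190, 76 and 356. The share was 72.5% at 30 min (66.8 to 77.6), 20.4% at 60 min (16.6 to 24.8) and 98.3% in input (96.4 to 99.2), and the upstream end stood at 40.7 times its input level at 30 min and at 264 times at 60 min (120 to 724). On chromosome 10 (plus strand, ends 121434844 and 121437327), the upstream end had 28, 143 and 3 counts, of which 98% over all libraries lay at 1 nucleotide. Its share downstream was 95.8%, 53.1% and 99.6%. On chromosome 2 (plus strand, ends 219268675 and 219270663), the upstream end had 222, 384 and 0 counts. With the input count put at 3, its ratio to input was 251 at 30 min (lower limit 203) and 682 at 60 min (lower limit 552). Of its summed counts, 91% lay at 1 nucleotide. In these 3 pairs the upstream end had 6, 3 and 0 counts in input and a higher level at 60 than at 30 min. These ends passed the minimum of 20 counts for a site only through the labelled libraries. Their high ratios to input are therefore no separate evidence of a change.

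A different pattern was seen on chromosome 11 (minus strand, ends 65487156 and 65485146), the third of the largest falls. The upstream end had 777, 1901 and 11366 counts and the downstream end 1242, 613 and 1862. The share was 61.5% (59.4 to 63.6) at 30 min, 24.4% (22.7 to 26.1) at 60 min and 14.1% (13.5 to 14.7) in input. Thus 60 min lay closer to the input than 30 min did, but still 10.3 points above it (8.56 to 12.1), a called rise. The upstream end stood at 0.232 of its input level at 30 min (0.216 to 0.250) and at 0.891 at 60 min (0.848 to 0.935). The pair on chromosome 12 (minus strand, ends 109994503 and 109991545) had the same order, with shares of 53.8%, 17.9% and 4.71%. Its downstream end, under 5% in input, was likewise kept only through the labelled libraries.

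Spacing within the range separated the pairs only in part. The spacing had a median of 1995 nt and quartiles of 1425 and 2760 nt. In the 607 pairs under 2000 nt apart, 159 were higher and 54 lower at 30 min (26.2% and 8.90%), with a median change of 3.14 points. In the 602 pairs at least 2000 nt apart, 202 were higher and 82 lower (33.6% and 13.6%), with a median of 4.01 points. At 60 min the medians were 3.09 and 5.30 points, with 136 and 209 pairs higher and 62 and 74 lower. The wider pairs thus had more calls in both directions at 30 min. The rise with spacing was not continuous: at 60 min the median was 7.08 points in 222 pairs from 2000 to under 2500 nt, 4.77 in 154 from 2500 to under 3000 nt and 4.03 in 226 from 3000 to 4000 nt.

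The nearest comparison is the 1829 pairs chosen by the same rule with ends under 1000 nt apart. Among these, 291 were higher and 180 lower at 30 min (15.9% and 9.84%), with a median change of 1.09 points, and 304 and 208 at 60 min, with a median of 0.79. Changes of at least 30 points at 30 min were called in 26 of them toward the downstream end (1.42%) and in 7 toward the upstream end (0.383%), against 6.53% and 1.74% of the widely spaced pairs, so that such changes were more frequent in the wider pairs in both directions. From 30 to 60 min 109 closely spaced pairs were higher and 174 lower (5.96% and 9.51%), with a median of -0.21 points. Relative to all ends, the downstream ends of closely spaced pairs had a median log2 ratio of 0.05 at 30 min and -0.01 at 60 min, against 0.55 and 0.56 in the widely spaced pairs. The upstream ends had -0.20 and -0.18, against -0.08 and -0.03. The gap between the kinds of pair was thus wider at the downstream than at the upstream end. It was not tested, as there is 1 library per group.

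**Figure D5:**
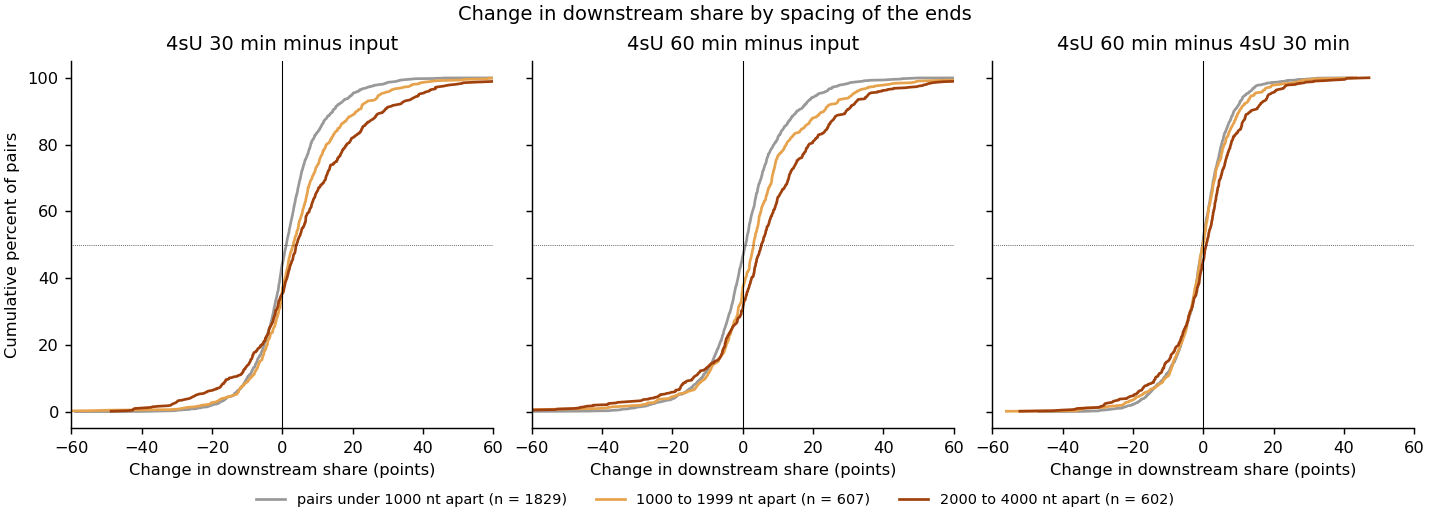
Cumulative percent of pairs (y axis) by change in downstream share (x axis, points, shown within 60 of 0) for pairs under 1000 nt apart, 1000 to under 2000 nt and 2000 to 4000 nt, in the 3 comparisons. Against input the curves of the wider pairs lie further right above the middle, with medians at 30 min of 1.09, 3.14 and 4.01 points; between labelling times the medians are -0.21, -0.06 and 0.90 points, and the curve of the widest class lies furthest right at the top.

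The pairs shared few features beyond the rule. They lay on 22 autosomes and X, most on chromosomes 1 (117 pairs), 17 (85) and 19 (80). Among chromosomes with at least 40 pairs, the median change at 30 min was highest on 20 (7.82 points, 41 pairs), 16 (7.58, 45 pairs) and 11 (7.48, 64 pairs) and lowest on 5 (0.44, 60 pairs) and 4 (0.87, 43 pairs). On chromosome 5, 9 pairs were higher and 9 lower, and on chromosome 11, 26 and 9. No split of all groups by chromosome stands beside these values, so they do not mark a trait of the pairs. Both kinds of end were about equally sharp: the highest nucleotide held a median of 43.2% of an upstream end's counts and 44.9% of a downstream end's, and the upstream end was the sharper in 560 pairs. Only 13 upstream and 12 downstream ends had at least 90% of their counts at 1 nucleotide. Of ends with at least 50 counts in each library, the highest nucleotide held a smaller percent at 30 min than in input in 400 of 581 upstream and 424 of 689 downstream ends. At 60 min it was smaller in 341 and larger in 238 upstream ends, and smaller in 371 and larger in 316 downstream ends. The highest nucleotide was chosen by the summed counts of all libraries, of which input gave the most. That choice can favour a larger percent in input, so these counts cannot tell whether ends were sharper there. An opposite-strand site of at least 20 counts lay between the ends or within 1000 nt of them in 219 pairs (18.1%), which were 78 of the 361 pairs called higher at 30 min (21.6%) and 16 of the 136 called lower (11.8%).

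Few counts lay between the ends, as the rule requires: a site there with at least 5% of the group would have been kept, and the group would not have been a pair. Counts between them, from 25 nt inside each end, made up a median of 1.64% at 30 min, 1.45% at 60 min and 1.11% in input of the counts from end to end. In 209, 297 and 183 pairs there were none. The percent was above the input in 679 pairs and below it in 428 at 30 min, and in 594 and 500 at 60 min; the median difference was 0.15 points at 30 min. In 586 pairs the group held at least 1 minor site that the 5% rule dropped, and in 362 a minor site lay between the ends.

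At the limits of the rule, the narrowest pairs kept were 1000 nt apart, on chromosome 10 (minus strand, upstream end 135093141) and chromosome 19 (plus strand, upstream end 19468562), with changes of 16.6 and 10.9 points at 30 min. The widest 2 pairs just under the minimum were 997 and 996 nt apart, with changes of 29.0 and 0.76 points. The widest pairs kept were 3996 and 3992 nt apart, with changes of -29.8 and -0.39 points, and the first beyond the maximum were 4034 and 4064 nt apart, with 6.83 and 4.94 points. The pairs with the fewest counts kept had 300, with changes of 22.7 and -0.27 points, and those just below had 299, with 4.67 and -7.95 points.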

How the data were processed

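Polyadenylated RNA 3′ ends of HEK293T cells were read by 2P-seq. Per the labels' protocols, poly(A) RNA was cut with RNase T1, selected again and copied into cDNA with an anchored oligo(dT) primer, and the 4sU libraries omitted the first poly(A) selection. No source used here says whether the input did, so labelling and selection cannot be told apart. Cutadapt and Bowtie were used per the submitters' processing notes; versions, build and handling of multiply mapped reads are not given there.

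The authors deposited raw counts per stranded position, 1 table per library, not normalized. Ends were merged, grouped and filtered as described (Python 3.11.15, pandas 2.3.3, numba 0.67.0). Shares carry Wilson intervals, differences Newcombe intervals, and CPM ratios exact Clopper-Pearson intervals on the share of counts (scipy 1.17.1); a count of 0 was put at 3 counts. Ratios use nuclear totals; TMM came from edgeR 4.0.16. The protocol names no molecular identifiers, so copies of 1 molecule can be counted more than once. Pairs were named by these rules: 10 largest rises and falls at 30 min and 5 each from 30 to 60 min among called pairs with at least 50 counts in each library, the 6 with most counts, and those at the limits. Members, rules and classes were chosen with earlier results of these data known. No sequence of the files' build was used, so none is printed. Whether A-rich stretches of the genome lay at the counted ends was therefore not checked.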

Additional observations from a re-analysis of the deposited data

Results flagged for a closer look

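Counts beyond the downstream end, which enter no comparison of the report, were above the input level in both labelled libraries. Summed over the 1209 pairs, the stretch from 25 to 1000 nt past the downstream end held 7098 counts in input, against 4351 at 30 min and 2224 at 60 min, or 0.361%, 0.595% and 0.540% of these and the pairs' own counts together. In 650, 653 and 703 pairs there were no counts in this stretch, and the median was 0 in all 3 libraries. The percent was above the input in 445 pairs and below it in 251 at 30 min, and in 419 and 279 at 60 min.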

How the results depend on the processing

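Dropping sites under 10% moved the medians to 5.22 (30 min against input), 6.19 (60 min against input) and 0.89 points (60 against 30 min). Dropping none gave 204 higher and 75 lower pairs, 187 and 85, and 77 and 79 in that order of comparisons, with medians of 1.44, 1.51 and -0.037. Pairs without a dropped site gave 194 and 69, 177 and 77, and 75 and 76, and a median of -0.42 points for 60 against 30 min. Calls at 20 points gave 176 and 54, 188 and 62, and 41 and 49. With at least 1000 counts, 656 pairs gave 219 and 64, 204 and 61, and 79 and 74, with a median of 4.54 points at 30 min. Under the 7 other alternatives (merging windows of 12 and 50 nt, wider gaps, 50 counts in each library, highest positions only, no end with 90% at 1 position, no opposite-strand site) the medians ran from 2.83 to 3.71, from 3.66 to 4.26 and from 0.41 to 0.58 points. The counts ran from 283 to 383 higher and 115 to 142 lower, from 274 to 376 and 116 to 148, and from 114 to 158 and 108 to 142. For spacing in classes of 1000 nt, the widest exceeded the narrowest by 0.94 points at 60 min.

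For own ratios, mitochondrial counts in the total gave 361 lower upstream and 181 lower downstream ends at 30 min and 244 lower downstream ends at 60 min; median log2 ratios were -0.21 upstream and 0.42 downstream at 30 min, and -0.56 and 0.026 at 60 min. TMM gave 436 lower upstream and 353 higher and 247 lower downstream ends at 30 min, with medians of -0.45 and 0.19, and of -0.46 and 0.13 at 60 min. Median of ratios gave 248 higher and 462 lower upstream and 322 higher and 275 lower downstream ends at 30 min, with medians of -0.55 and 0.091, and of -0.44 and 0.14 at 60 min. Calls at 1.5-fold gave 172 lower downstream ends at 30 min and 225 at 60 min. Calls at 4-fold gave 210 higher and 69 lower upstream and 266 and 12 downstream ends at 30 min, and 137 and 75, and 190 and 35 at 60 min. With at least 1000 counts, 168 upstream and 274 downstream ends were higher at 30 min, with medians of -0.13 and 0.64 and a difference of 0.57. At 60 min 124 upstream ends were higher, 203 downstream ends were higher and 97 lower, with medians of -0.37 and 0.36. Fewer pairs, another call size or another total are part of these alternatives; the cause was not tested further. For the named pairs, both windows and highest positions only gave 123 values, of which 122 kept the call. The exception was the pair at 19468562 on chromosome 19, at the limit of spacing, with 7.08 points from highest positions only. The sign turned in 2 uncalled pairs: at 44219909 on chromosome 6 to -0.92 points with highest positions only, and at 58157061 on chromosome 17 to 0.24 points with the window of 50 nt. No paired analysis was possible because each group has 1 library, and no replicate could be left out.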
